A study of Mus musculus with 8 samples.

Results

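CREB, CRTC, MYB and CITED proteins bring the coactivator CBP to chromatin, and their transcripts were measured here in fetal liver haematopoietic stem cells with 1 mutant copy of Crebbp, the gene that encodes CBP. The genes were Creb1, Atf1, Crem, Crtc1, Crtc2, Crtc3, Myb, Mybl2, Cited2 and Cited4. Every probe set whose annotation gave 1 of these 10 symbols and no other was taken, which found 26 probe sets for 9 genes, of 34945 probe sets with 1 symbol for 18193 genes. Atf1 has no value, because the probe set that names it also names a pseudogene, Atf1-ps.

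Both groups were on the C57BL/6 background: wild-type embryos, and embryos labelled Crebbp+/-. Fetal livers were taken at 14.5 days post coitum according to the sample descriptions, or 14 according to the characteristics, and cells were sorted as Sca-1+, Lin-, AA4.1+ and c-Kit++. Each of 2 numbered samples per genotype combined 15 embryos, and 12 ng of its total RNA was amplified with the Ovation system and measured on 2 Affymetrix arrays. Values are log2 signals that the submitters corrected for background and normalized with GCRMA, and the dimmest of these probe sets lay at 2.20. The sources used here do not give the structure of the mutant allele or the crosses. Nothing says that the 2 arrays of a sample came from separate cells, or that numbered samples came from separate litters. The 2 arrays were therefore averaged, n = 2 samples per genotype throughout, and p-values measure only the spread between these preparations.

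CREB1, ATF1 and CREM are leucine zipper factors that bind the cyclic AMP response element. After phosphorylation by protein kinase A and other kinases, their kinase-inducible domain binds the KIX domain of CBP or of its paralog p300. CRTC proteins enter the nucleus once salt-inducible kinases no longer phosphorylate them, and join CREB on DNA. MYB, which definitive blood formation needs, binds KIX through its activation domain, whereas CITED2 and CITED4 bind the TAZ1 domain, for which CITED2 competes with hypoxia-inducible factors.

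The half-site of the cyclic AMP response element, TGACG, is the sequence that CREB1 and CREM bind. It was searched on both strands of RefSeq promoter windows of GRCm38.p6 that reach from 250 bases before to 50 bases after each start. It lay in 13 of the 14 listed CREB target genes with a window, against 20.8% of all 32851 windows. Such genes are known as targets partly for these sites, so this is a description. Shown are the targets with at least 2 matches between bases -150 and -31, each written 5′ to 3′ on the gene's strand, with the half-site in capitals on either strand (CGTCA is its reverse complement).
Fos, chr12:85473740-85473859, plus strand: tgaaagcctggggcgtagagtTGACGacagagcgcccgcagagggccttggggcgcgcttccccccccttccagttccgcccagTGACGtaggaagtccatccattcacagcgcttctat
Dusp1, chr17:26508503-26508622, minus strand: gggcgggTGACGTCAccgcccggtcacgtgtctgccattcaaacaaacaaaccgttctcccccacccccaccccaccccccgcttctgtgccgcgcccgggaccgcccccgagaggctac
Nr4a1, chr15:101266696-101266815, plus strand: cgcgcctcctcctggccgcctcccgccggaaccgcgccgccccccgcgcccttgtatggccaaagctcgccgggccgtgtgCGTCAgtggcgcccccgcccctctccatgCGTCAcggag
Nr4a2, chr2:57124034-57124153, minus strand: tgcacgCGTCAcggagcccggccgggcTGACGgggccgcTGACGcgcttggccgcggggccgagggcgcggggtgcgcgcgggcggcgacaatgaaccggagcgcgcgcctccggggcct
The Fos matches begin at bases -129 and -66, and in Dusp1 a pair of half-sites overlaps in the full palindrome TGACGTCA at base -143. The palindrome was found in 1.79% of all windows. Among the CBP-recruiting factors themselves, 8 had a window, and the half-site was found in that of Atf1 alone; in the 7 others these letters are not in this window.

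Kit and Cd93, the genes of c-Kit and AA4.1, had log2 signals of 9.05 to 9.36 and of 12.05 to 12.33 over the 4 samples. Ly6a, which encodes Sca-1, was not analysed here. Of 9 lineage genes 6 had a probe set, and all of these but Cd4 lay at background. A measure of RNA integrity, the 5′ minus 3′ signal of the Gapdh control, was lower in sample 2 of each genotype: -2.59 against -1.22 for wild type, and -1.88 against -0.89 for Crebbp+/-. Within each number this measure was also higher in Crebbp+/- than in wild type, so it differed with genotype too. Of 10 hepatocyte genes 8 had a probe set and 2 of these (Fgb and Ahsg) lay at background, and their summed log2 signal ran from 9.28 to 10.68 over wild-type arrays and from 10.03 to 10.18 over Crebbp+/- arrays. Hnf4a, the brightest of them, was nearly level at 9.29 to 9.54 in the 4 samples. It holds most of that sum except in wild-type sample 2, where the sum was 10.65. The fetal liver gene Afp, by contrast, had 3.68 and 8.50 in the wild-type samples and 6.72 and 7.08 in the Crebbp+/- samples. The 6 tested hepatocyte genes were higher in wild-type sample 2 than in wild-type sample 1 by a median of 4.30 log2 units, against 0.46 between the Crebbp+/- samples. Each difference is therefore also given separately for number 1 and for number 2.

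No transcript of the CBP-recruiting factors passed the test between genotypes. Of their 26 probe sets, 19 had a mean log2 signal above 2.72, the median over all probe sets, and were tested with 22518 probe sets in limma. These 19 belong to 8 genes, and probe sets of the same gene are not independent. Of all tested probe sets 0% passed at an adjusted p of 0.05, and of the 19 also 0, with adjusted p from 0.991 to 0.9995. At an unadjusted p under 0.05 stood 4.84% of all probe sets (1.23% higher and 3.61% lower in Crebbp+/-) and 0 of the 19 in either direction. Differences (Crebbp+/- minus wild type, log2) ran from -0.24 to 0.67 with a median of 0.13, against a median of 0.02 over all tested probe sets, and 12 of 19 were positive, against 53% of all. In 13 of the 19 the 95% interval lay within 1 log2 unit of 0, against 49.3% of all. In sorted bulk cells, fewer cells of a type and less RNA per cell cannot be told apart.

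**Figure D1:**
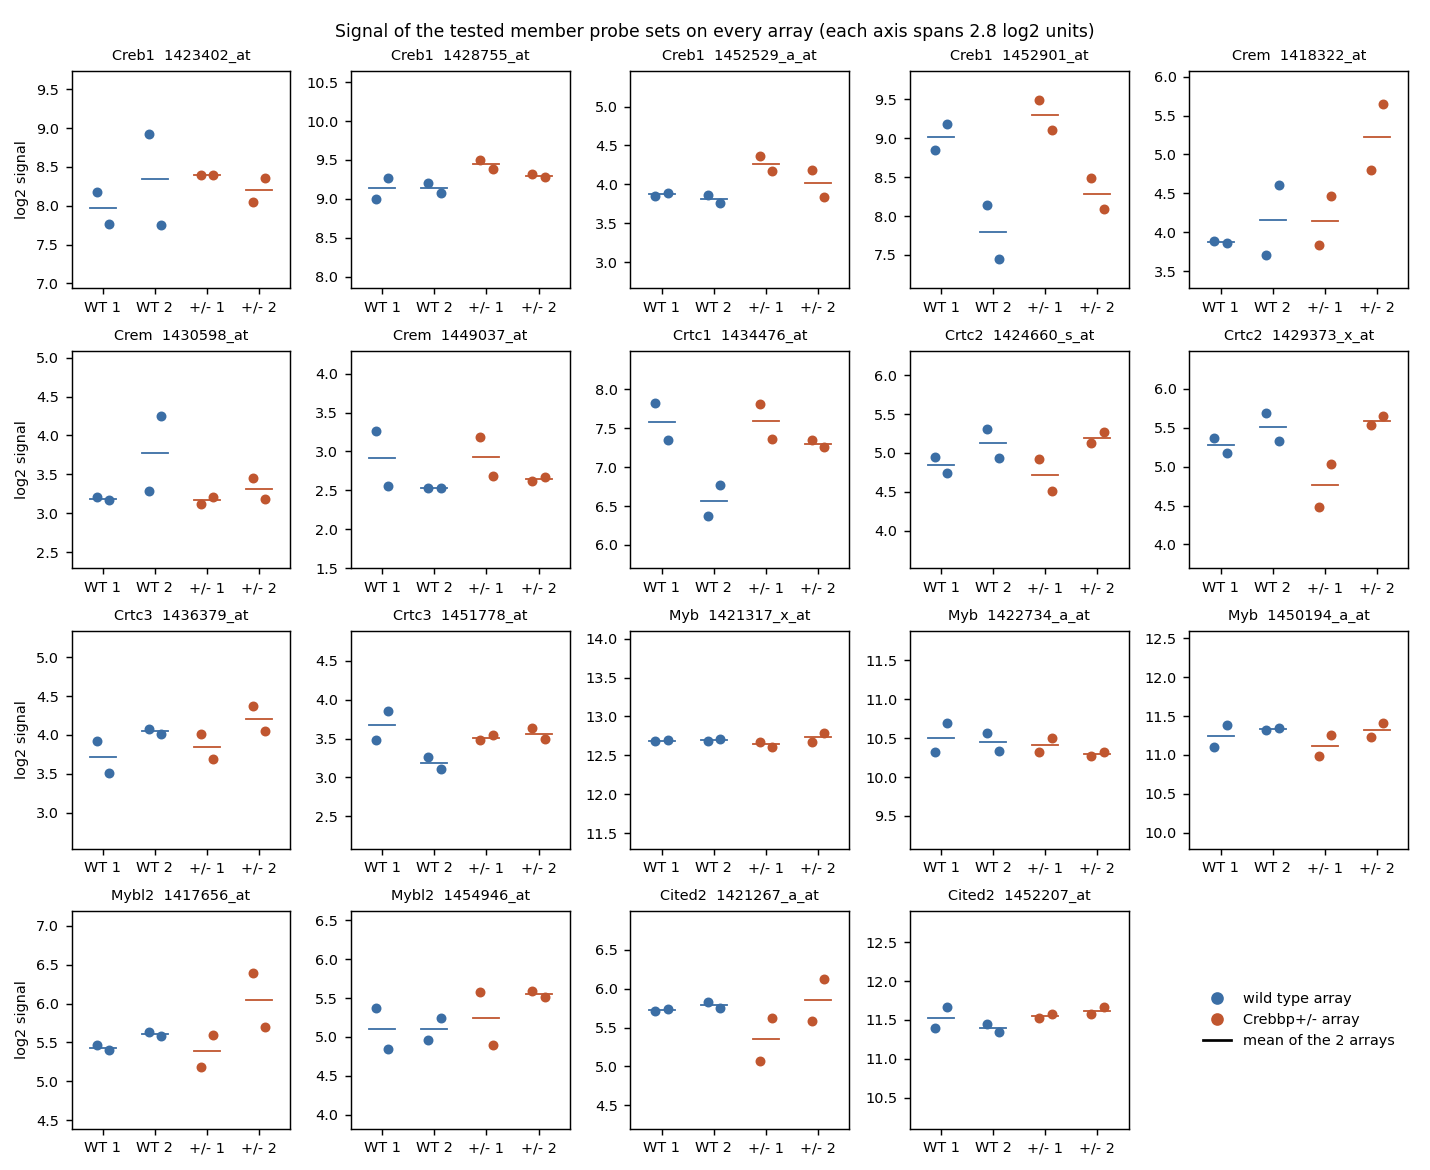
Log2 signal of the 19 tested probe sets of the CBP-recruiting factors, 1 panel per probe set, for each array (points) and sample (bars, mean of 2 arrays); blue is wild type, red is Crebbp+/-, and every vertical axis has the same width in log2 units. The groups overlap in all panels but that of Creb1 1428755_at, where wild-type arrays reach 9.27 and Crebbp+/- arrays begin at 9.28.

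Creb1, which encodes the founding member of the CREB family, was measured by 6 probe sets. All 4 tested ones had a positive difference, and none passed the test. Probe set 1428755_at had log2 signals of 8.999 and 9.27 (sample 1) and 9.20 and 9.08 (sample 2) on the wild-type arrays, and 9.50 and 9.39 (sample 1) and 9.32 and 9.28 (sample 2) on the Crebbp+/- arrays. It was the only tested probe set of these genes with all 4 Crebbp+/- arrays above all 4 wild-type arrays, though the groups nearly met. Over all tested probe sets 6.98% were separated in either direction, and of the 19 only this 1 was, near that share. The difference was 0.23 (SE 0.19, 95% interval -0.26 to 0.73, limma adjusted p = 0.991), a 1.18-fold level with bounds of 0.836 and 1.65, and it was 0.31 and 0.16 within the samples numbered 1 and 2. The summed log2 signal of the lymphoid marker list was separated likewise. It reached from 9.13 to 9.85 over the wild-type arrays and from 9.93 to 10.40 over those of Crebbp+/- (8 of 8 genes with a probe set, Cd79a and Pax5 at background). Cd79b, a bright member, did not follow it, with 8.19 and 8.20 in the wild-type samples and 8.28 and 8.01 in the Crebbp+/- samples. Ccr9 differed by 1.43, and 5 of the 6 tested genes were positive. The part of this list in the Creb1 difference was not tested.

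The other Creb1 probe sets varied more. Probe set 1452901_at, annotated to the same cDNA as 1428755_at, had 8.85 and 9.18 (sample 1) and 8.14 and 7.45 (sample 2) on the wild-type arrays, and 9.49 and 9.11 (sample 1) and 8.49 and 8.09 (sample 2) on the Crebbp+/- arrays. Sample 2 was thus lower than sample 1 in each genotype, by -1.22 in wild type and -1.01 in Crebbp+/-, whereas 1428755_at differed by 0.0047 and -0.14. The Gapdh 5′ minus 3′ measure was lower in sample 2 as well, and higher in Crebbp+/- within each number. Its part in these differences was not tested. The genotype difference at 1452901_at was 0.39 (SE 0.55, interval -1.05 to 1.83), smaller than the difference between sample numbers, and 0.29 and 0.50 within them. Probe set 1452529_a_at, whose suffix marks probes shared by alternative transcripts of a gene, had 3.85 and 3.89, then 3.86 and 3.76 in the wild-type samples, and 4.36 and 4.17, then 4.19 and 3.84 in the Crebbp+/- samples. Only the last of the Crebbp+/- arrays fell among the wild-type values, and the difference was 0.30 (SE 0.23, interval -0.31 to 0.91). For 1423402_at the 2 arrays of wild-type sample 2 lay 1.16 apart, at 8.92 and 7.76, and the genotype difference of 0.14 (SE 0.25) was 0.42 for number 1 and -0.14 for number 2.

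A pair of Creb1 probe sets lay below the filter and was not tested. Probe set 1421583_at stayed between 2.21 and 2.22 on every array. Probe set 1421582_a_at was above 2.72 in Crebbp+/- sample 1 alone, at 3.11 and 3.38, while the other 6 arrays ran from 2.33 to 2.57. The Crebbp+/- samples thus differed from each other by -0.78 (sample 2 minus 1), more than the genotype means differed (0.42).

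Crem encodes activators and, from an internal promoter, the repressor ICER, which cyclic AMP induces. Its brightest probe set, 1418322_at, had 3.89 and 3.86 (sample 1) and 3.71 and 4.60 (sample 2) on the wild-type arrays, and 3.84 and 4.46 (sample 1) and 4.80 and 5.64 (sample 2) on the Crebbp+/- arrays. Crebbp+/- sample 2 stood above the other samples, and the other 3 overlapped. The difference of 0.67 was the largest among the CBP-recruiting factors, with an SE of 0.43, an interval from -0.45 to 1.79 and a limma adjusted p of 0.991. Of all tested probe sets, 10.2% had a larger absolute difference. Within the samples numbered 1 and 2 it was 0.28 and 1.07, and without Crebbp+/- sample 2 it was 0.13. The summed log2 signal of the macrophage marker list was also higher in sample 2, at 10.85 against 9.99 for wild type and 10.98 against 9.50 for Crebbp+/- (8 of 8 genes with a probe set, of which Adgre1, C1qa, C1qc, Marco and Vcam1 lay at background). That sum is mostly Csf1r, with 9.81 and 10.76 in the wild-type samples and 9.31 and 10.90 in the Crebbp+/- samples. Cd68 was lower in wild-type sample 2 than in sample 1 (5.87 against 6.01) but higher in Crebbp+/- sample 2 than in sample 1 (5.89 against 5.41). Their part in the Crem difference was not tested.

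The remaining Crem probe sets were dim. Probe set 1430598_at lay between 3.12 and 3.45 on 7 arrays and reached 4.25 on the second array of wild-type sample 2, for a difference of -0.24 (SE 0.27). Probe set 1449037_at exceeded 2.72 only on the first array of each sample numbered 1, at 3.26 in wild type and 3.18 in Crebbp+/-, and differed by 0.07 (SE 0.23). Probe set 1430847_a_at stayed between 2.30 and 2.35 and was not tested. The Crem probe sets thus did not share a direction.

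**Figure D2:**
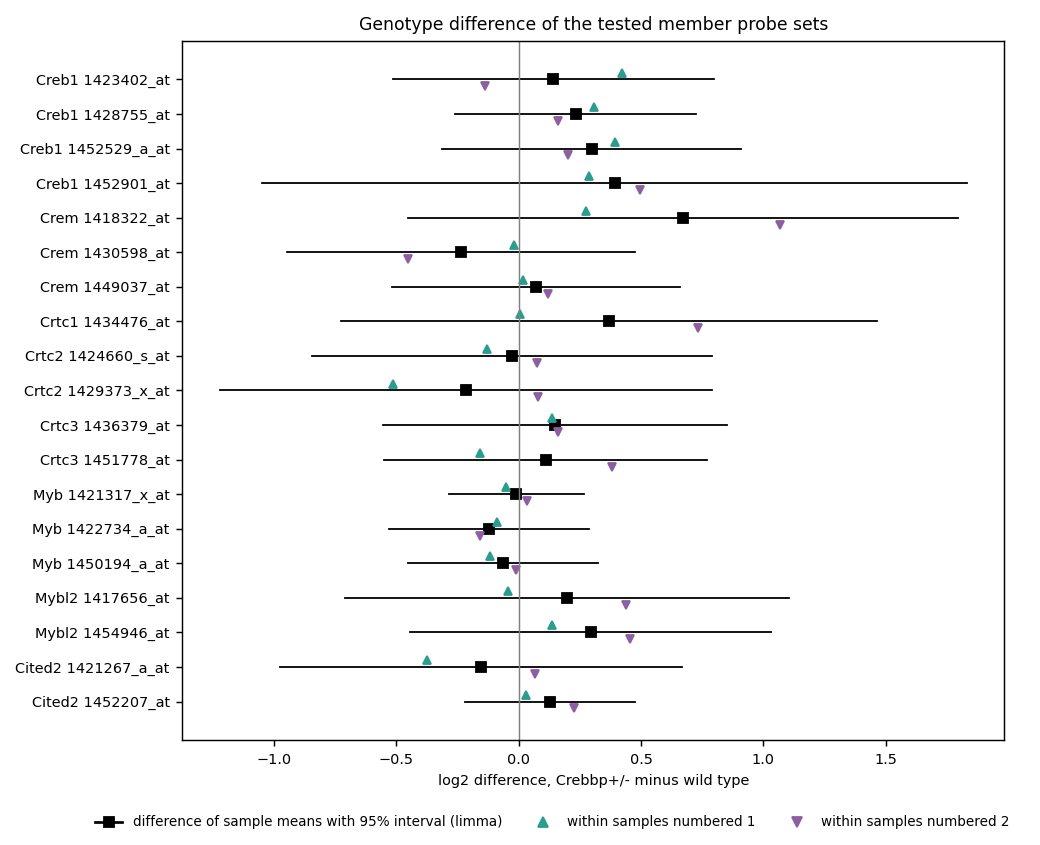
Log2 difference, Crebbp+/- minus wild type, of the 19 tested probe sets (squares, with the 95% interval of the limma fit as lines), and the same difference within the samples numbered 1 (upward triangles) and 2 (downward triangles). Every interval holds 0, from the narrow ones of Myb 1421317_x_at (-0.29 to 0.27) to the wide one of Creb1 1452901_at (-1.05 to 1.83).

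Crtc1, a CREB coactivator of the CRTC family, was measured above background by 1 of 3 probe sets. That probe set, 1434476_at, had 7.82 and 7.35 (sample 1) and 6.38 and 6.77 (sample 2) on the wild-type arrays, and 7.82 and 7.37 (sample 1) and 7.35 and 7.26 (sample 2) on the Crebbp+/- arrays. Wild-type sample 2 was low and the other 3 samples lay close together. The difference of 0.37 (SE 0.42, interval -0.73 to 1.46) came to 0.0056 for number 1 and 0.73 for number 2. Wild-type sample 2 also had the lowest Gapdh 5′ minus 3′ value, -2.59, and the highest signal of Afp, 8.50, and the part of either was not tested. Probe sets 1446533_at and 1458443_at lay between 2.21 and 2.38 on all arrays.

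Crtc2, the CRTC that relays fasting signals in liver, was measured by 2 probe sets, both with suffixes that mark probes shared with other transcripts. Probe set 1429373_x_at had 5.37 and 5.17, then 5.70 and 5.33 in the wild-type samples, and 4.49 and 5.04, then 5.54 and 5.65 in the Crebbp+/- samples. Crebbp+/- sample 1 was the lowest and Crebbp+/- sample 2 lay within the wild-type range. Its difference was -0.22 (SE 0.39, interval -1.22 to 0.79), or -0.51 and 0.08 within the samples numbered 1 and 2. At 1424660_s_at the difference was -0.03 (SE 0.31), with the same order of the samples: Crebbp+/- sample 1 lowest at a mean of 4.72, then wild-type sample 1 at 4.85, wild-type sample 2 at 5.12 and Crebbp+/- sample 2 at 5.20.

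Crtc3, the third CRTC, was dim at both probe sets. At 1436379_at the samples numbered 1 had means of 3.72 in wild type and 3.85 in Crebbp+/-, and those numbered 2 had 4.05 and 4.21. The difference of 0.15 (SE 0.27, interval -0.55 to 0.85) was thus alike within the numbers, at 0.14 and 0.16, and smaller than the difference between them, 0.33 in wild type and 0.36 in Crebbp+/-. At 1451778_at the means were 3.67 and 3.19 in wild-type samples 1 and 2 and 3.51 and 3.56 in Crebbp+/- samples 1 and 2, a difference of 0.11 (SE 0.25) whose sign differed between the numbers (-0.16 and 0.38).

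Myb, which encodes the MYB factor of blood progenitors, was measured precisely by 3 bright probe sets. Probe set 1421317_x_at had 12.68 and 12.70 (sample 1) and 12.68 and 12.71 (sample 2) on the wild-type arrays, and 12.67 and 12.61 (sample 1) and 12.67 and 12.79 (sample 2) on the Crebbp+/- arrays. All 8 arrays lay between 12.61 and 12.79, and the groups overlapped. The difference was -0.0095 (SE 0.11, interval -0.29 to 0.27), a 0.993-fold level with bounds of 0.821 and 1.20. Its suffix marks probes that can match other transcripts, and the other probe sets have no such mark.

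The other Myb probe sets had small differences with overlapping arrays as well. At 1450194_a_at the wild-type arrays spanned 11.10 to 11.38 and those of Crebbp+/- 10.98 to 11.41, with a difference of -0.07 (SE 0.15, interval -0.45 to 0.32). At 1422734_a_at the spans were 10.32 to 10.69 and 10.27 to 10.50, with a difference of -0.12 (SE 0.16, interval -0.53 to 0.29). Both Crebbp+/- sample means at 1422734_a_at lay below both wild-type means, which 15.4% of all tested probe sets also showed, and 1 of the 19 did. None of the 3 intervals reached 1 log2 unit in either direction.

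Mybl2 encodes B-MYB, which joins the MuvB complex on genes of mitosis. Probe set 1417656_at had 5.46 and 5.40 (sample 1) and 5.64 and 5.58 (sample 2) on the wild-type arrays, and 5.18 and 5.59 (sample 1) and 6.40 and 5.69 (sample 2) on the Crebbp+/- arrays. The Crebbp+/- samples lay on either side of wild type, and the difference was 0.20 (SE 0.35, interval -0.71 to 1.10), or -0.05 and 0.44 within the samples numbered 1 and 2. Probe set 1454946_at spanned 4.84 to 5.37 over the wild-type arrays and 4.89 to 5.59 over those of Crebbp+/-. Its sample means were 5.10 in each wild-type sample, and 5.24 and 5.56 in the Crebbp+/- samples, a difference of 0.29 (SE 0.28, interval -0.44 to 1.03).

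Cited2, which blood stem cells need and which restrains hypoxia-inducible factors, was bright at 1 of its 2 probe sets. Probe set 1452207_at had 11.39 and 11.66 (sample 1) and 11.45 and 11.34 (sample 2) on the wild-type arrays, and 11.52 and 11.58 (sample 1) and 11.57 and 11.66 (sample 2) on the Crebbp+/- arrays. Both Crebbp+/- means, 11.55 and 11.62, lay above both wild-type means, 11.52 and 11.39, while single arrays overlapped. The difference was 0.13 (SE 0.13, interval -0.22 to 0.47), a 1.09-fold level with bounds of 0.857 and 1.39. This order of sample means held for 4 of the 19 probe sets, against 15.6% of all tested. The dimmer 1421267_a_at, whose wild-type arrays stayed between 5.71 and 5.83, ran from 5.07 to 6.12 in Crebbp+/- and differed by -0.15 (SE 0.32, interval -0.98 to 0.67).

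Cited4, a relative of CITED2, lay at background on every array. Its 2 probe sets ran from 2.20 to 2.21 and from 2.24 to 2.25, below the filter of 2.72, and were not tested. A change in Cited4 was therefore not measurable here.

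Several of these transcripts differed more between sample numbers than between genotypes. Over the 19 probe sets the median absolute difference was 0.24 between wild-type samples 2 and 1 and 0.28 between Crebbp+/- samples 2 and 1. Between genotypes it was 0.15, and between the 2 arrays of a sample it was 0.25. Over all tested probe sets these medians were 0.35, 0.30, 0.21 and 0.22. The genotype difference was positive within both numbers for 9 of the 19, against 33.9% of all, and negative within both for 3, against 28.5%. Several of the 19 measure the same gene, so these counts are not of independent members. The share of all tested probe sets that keep their sign when samples or arrays are omitted is not given here. The next count is therefore only a description. When each sample or array in turn was left out, 6 of the 19 kept their sign throughout: Creb1 1428755_at and 1452529_a_at, Crem 1418322_at, Myb 1422734_a_at, Mybl2 1454946_at and Cited2 1452207_at. None of the 19 passed in any of these fits.

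**Figure D3:**
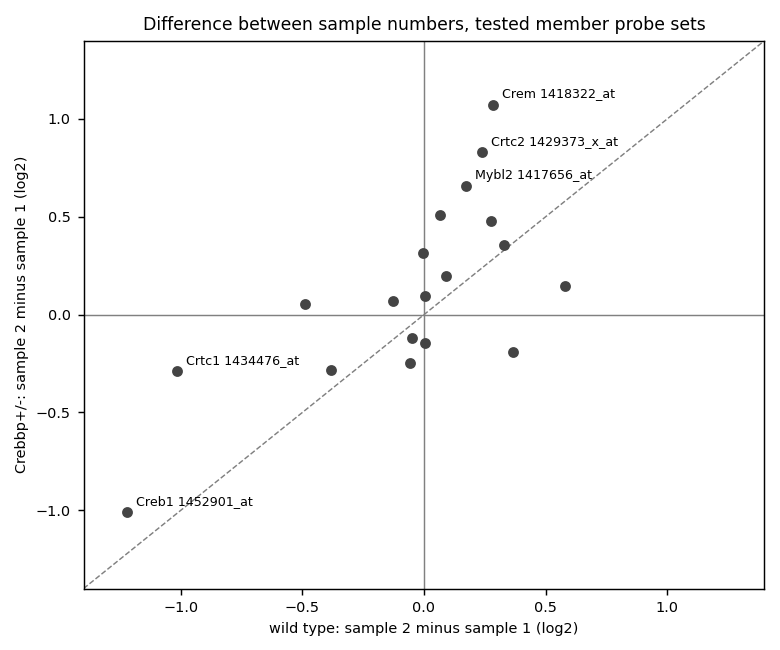
Log2 difference between sample numbers (sample 2 minus sample 1) of the 19 tested probe sets, wild type on the horizontal and Crebbp+/- on the vertical axis; the dashed line marks equal values, and probe sets beyond 0.6 on either axis are named. Creb1 1452901_at lies at -1.22 and -1.01, Crem 1418322_at at 0.28 and 1.07, and Crtc1 1434476_at at -1.02 and -0.29.

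Profiles most like those of Crem and Crtc1, whose brightest probe sets varied most over the 8 arrays (SD 0.66 and 0.49), were ranked by the root mean square distance between log2 profiles centred on their own means. Nearest to Crem 1418322_at were Ankrd6 (0.241), Chst14 (0.241) and 9230116N13Rik (0.242), with a median distance of 0.684 over 19051 candidate probe sets. Nearest to Crtc1 1434476_at were Chid1 (0.0964), Ppp1r2 (0.101) and D10Wsu102e (0.106), with a median of 0.538 over 19053. The 8 arrays hold 4 samples, so likeness rests on few points.

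Genes that act before and after these factors also gave no call in limma, in any of the 11 lists described here. Among 21 tested kinase and phosphatase genes upstream of CREB and CRTC, 12 lay above 0, against 53% of all tested probe sets. The median was 0.11, and -0.0037 when the tested probe sets of each gene were averaged. The lowest unadjusted p belonged to Prkar2a, a regulatory subunit of protein kinase A, at 0.44 (SE 0.17, adjusted p = 0.991), with all Crebbp+/- arrays above all wild-type arrays, and its second tested probe set differed by 0.71. Sik1, a salt-inducible kinase that holds CRTC proteins in the cytoplasm and is itself a CREB target, came next. Its arrays had 5.55 and 5.94, then 6.46 and 6.83 in the wild-type samples, and 3.88 and 4.28, then 5.38 and 5.48 in the Crebbp+/- samples. All Crebbp+/- arrays of Sik1 were below all wild-type arrays, a separation in either direction that 6.98% of all tested probe sets had, and the difference was -1.44 (SE 0.59, interval -2.98 to 0.10), but its second probe set, 1419766_at, differed by -0.09 (SE 0.23). The bright members Camkk2 and Prkaca differed by -0.17 and 0.30, while the dimmer tested probe sets of Camkk2 differed by 0.09 and 0.36. Of 13 genes of cyclic AMP synthesis and breakdown 7 were positive, with a median of 0.01, and the adenylyl cyclases Adcy6 and Adcy7 and the G protein subunit Gnas differed by -0.44, -0.20 and -0.10. Dimmer Adcy7 probe sets differed by -0.19 and 0.23.

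Relatives and partners had medians near 0. It was 0.05 over 10 other CREB and ATF genes, where Atf6, a sensor of endoplasmic reticulum stress, differed by 0.32, Creb3 by -0.25 and Atf4 by 0.05. The other Creb3 probe sets differed by 0.19, 0.12 and -0.05, and a second tested one of Atf4 by -0.07. Over 8 MYB relatives and partners the median was 0.09, with the myeloid factors Cebpa at 0.47 and Cebpb at -0.59, Mybbp1a at 0.07 and Ets2 at 0.46. Dimmer Ets2 probe sets differed by -0.46 and 0.08. The 11 MuvB and DREAM genes had a median of 0.02, with Lin54, the DNA-binding subunit of MuvB, at -0.56 (its second probe set at 0.11), Rbl2 at 0.65, Rbbp4 at -0.05 and Tfdp1 at 0.08. Over 7 CITED relatives and partners the median was 0.16, and 0.075 when the tested probe sets of each gene were averaged. Smad2 differed by 0.36 (its second tested probe set by -0.21), Hif1a by 0.23 and Smad3 by 0.14. CBP, p300 and further ligands of their KIX and TAZ domains (14 genes) had a median of 0.02. There Crebbp itself, whose probe sets the sources do not place relative to the mutation, differed by 0.07 (SE 0.26) at its brightest probe set and by 0.01, -0.42 and -0.35 at the others. At the brightest probe sets Ep300 differed by 0.24 (SE 0.18), Irf3 by -0.49, Ncoa1 by 0.74 and Foxo3 by -0.07. The arrays of the genotypes were separated for Ep300, higher in Crebbp+/-, and for Irf3, lower. Such a separation, in either direction, held for 6.98% of all tested probe sets. The other Irf3 probe sets differed by -0.31, also separated, and by -0.18 and 0.05, with overlapping arrays.

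CREB target genes gave no call in limma, and 0 of 17 had an unadjusted p under 0.05. Of the 17 only 2, Ccna2 and Pde4d, had a positive difference, against 53% of all tested probe sets, and the median was -0.29. Earlier results of these data were known when this list was chosen, so the direction is no independent evidence. Fos, the immediate early gene whose half-sites are shown above, had 12.06 and 12.21, then 12.60 and 12.49 in wild type, and 11.59 and 11.46, then 12.57 and 12.59 in Crebbp+/-. Only Crebbp+/- sample 1 was low, and the difference of -0.29 (SE 0.38) was -0.61 and 0.03 within the numbers. Dusp1, a phosphatase of MAP kinases with the full palindrome, had 11.79 and 11.96, then 12.62 and 12.36, against 11.33 and 11.35, then 12.25 and 12.23. Within each number its Crebbp+/- arrays were lower, by -0.54 and -0.25, and the groups overlapped (difference -0.39, SE 0.37). The orphan nuclear receptor genes Nr4a2 and Nr4a1 differed by -0.79 (SE 0.51) and -0.47 (SE 0.43), while for Gem, which encodes a GTP-binding protein, it was -0.46 (SE 0.25). The list was also higher in sample 2 than in sample 1, by a median of 0.48 in wild type and 0.53 in Crebbp+/-, more than the genotypes differed. Its genotype median was -0.39 and -0.20 within the samples numbered 1 and 2. Csf1r and the Gapdh measure also moved with the sample number in both genotypes, and the Gapdh measure was higher in Crebbp+/- within each number. Their part was not tested.

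Target lists of the other factors had medians closer to 0. Of 11 MYB targets 6 were positive, with a median of 0.02. Lmo2, a bridging factor of blood stem cells, differed by -0.26 (SE 0.12) with all Crebbp+/- arrays below all wild-type arrays, the neutrophil elastase gene Elane by -0.29, Mpo by 0.04 and Cd34 by 0.07. MYBL2 targets of mitosis were positive in 11 of 13, against 53% of all tested probe sets. Their median of 0.12 was 0.0058 for number 1 and 0.24 for number 2. This list too was chosen with earlier results of these data known, so its direction is no independent evidence. Plk1, a mitotic kinase, differed by 0.42 (SE 0.31) and Kif20a by 0.31 (SE 0.24), while the bright Birc5 and Top2a differed by 0.12 and 0.07. A dimmer Top2a probe set, 1442454_at, went the other way, by -0.85 (SE 0.31), with all Crebbp+/- arrays below all wild-type arrays. Of all tested probe sets 6.98% were separated in either direction. The 12 HIF targets, which CITED2 restrains, had a median of 0.01. Egln1, an oxygen-sensing hydroxylase, had differences of 0.57 (SE 0.26) and, at its other probe set, 0.63. P4ha1 had 0.50 (SE 0.30), but its other probe set, below the filter and not tested, had -0.61. The glycolytic genes Pgk1 and Ldha had -0.02 and 0.05.

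**Figure D4:**
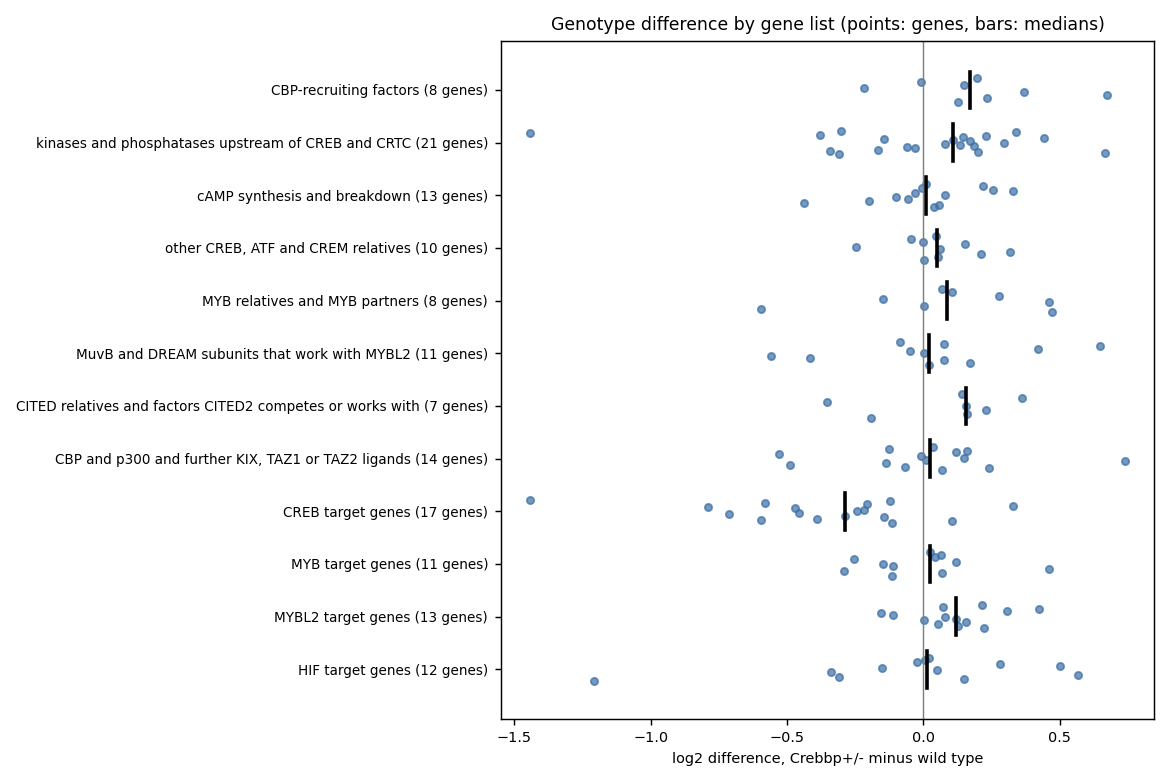
Log2 difference, Crebbp+/- minus wild type, of each tested gene (points, the probe set with the highest mean) in the CBP-recruiting factors and 11 related gene lists (rows, with the number of genes), with the list median as a bar. Medians lie between -0.29 for CREB target genes and 0.17 for the 8 tested CBP-recruiting factors, and Sik1, in both the kinase and the CREB target lists, is the lowest point at -1.44.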

How the data were processed

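Total RNA of 4 numbered samples, 2 per genotype, was measured on 8 arrays. The authors deposited log2 signals, for which the submitters' processing notes name GCRMA, a background correction and normalization for such arrays; the GCRMA version was not given in the sources used here. Array medians lay between 2.65 and 2.70. No scanner files were used, and the number of arrays limits the precision.

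Symbols came from the platform annotation, with gene identifiers matched to GRCm38.p6 for 34741 of 34945 probe sets with 1 symbol; 932 had several and 9160 none. After removal of 64 control probe sets, the 22518 with a mean above the median of 2.72 were fitted on sample means with limma 3.58.1 in R 4.3.3 (eBayes with an intensity trend; 2 residual and 4.75 total degrees of freedom), with Benjamini-Hochberg adjustment over all of them and a threshold of 0.05. The fit was also run on simulated data with independent samples, a check of the code that does not measure its power on these data. Intervals are 95%. An exact permutation test of 2 against 2 samples cannot reach the threshold and was not used.

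Each listed gene was represented by its brightest probe set. In each list the 2 genes with the lowest p and the 2 brightest were named, and Crebbp and Ep300 always; Nr4a1 and Nr4a2 were added after their values were seen, for their promoter sequences. The genes and lists were chosen with earlier results of these data known. Alternatives covered the replicate unit, the sample number as a block, filter, normalization, floor, variance trend, probe set choice and omission of each sample and array.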

Additional observations from a re-analysis of the deposited data

Results flagged for a closer look

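In 6 of 52 groups of 4 arrays (26 probe sets in each genotype), 1 array stood apart by Dixon's criterion, which sets its gap to the nearest array against the group's range. Chance alone gives about 1 in 20 for independent values, and repeat arrays of a sample are not independent. The share of such groups over all probe sets is not given here, so the count is only a description. Creb1 1423402_at was lowest on the first array of Crebbp+/- sample 2, at 8.05 against 8.35 on the nearest. Crem 1430598_at was highest on the second array of wild-type sample 2, at 4.25 against 3.28. Crem 1449037_at was highest on the first array of sample 1 in each genotype, at 3.26 against 2.56 in wild type and at 3.18 against 2.68 in Crebbp+/-. Mybl2 1454946_at was lowest on the second array of Crebbp+/- sample 1, at 4.89 against 5.51. Crtc1 1446533_at, below the filter throughout, was highest on the second array of Crebbp+/- sample 2, at 2.38 against 2.28.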

How the results depend on the processing

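No probe set of these genes passed in any of the 9 other ways of processing or the 12 omissions of a sample or an array. The count over all tested probe sets was 0 in limma except when the 8 arrays were taken as independent, where it was 1 and not a CBP-recruiting factor; repeat arrays are not separate samples. A fit with a replicate block for the sample number also gave 0, with 3673 of 22518 probe sets at an unadjusted p under 0.05 against 1089. That fit leaves fewer residual degrees of freedom than the main one. Of the 19, 1 had such a p with the block, a smaller share than over all tested probe sets, against 0 without it. The lowest adjusted p of the 19 in that limma fit was 0.288 (Creb1 1452901_at). The labels do not say what the number stands for. Deviations of same-numbered samples from their genotype means correlated at 0.55 across probe sets; with 2 samples per genotype the numbers mirror each other, so this is 1 value, and whether the number marks a shared preparation cannot be told from the labels. Of 160 comparisons with other processing 158 kept their direction. Crtc2 1424660_s_at turned to 0.028 under quantile normalization and Crem 1449037_at to -0.021 with a floor at the filter value; the cause was not tested. Of 228 comparisons with a sample or an array left out, 29 turned, in 13 of 19 probe sets. Differences then ranged from -0.15 to 0.43 for Creb1 1423402_at and from -0.22 to 1.00 for 1452901_at. For Crem they ranged from -0.53 to 0.054 at 1430598_at and from -0.12 to 0.26 at 1449037_at, and for Crtc1 1434476_at from -0.14 to 0.88. The ranges were -0.27 to 0.21 and -0.63 to 0.20 for Crtc2 1424660_s_at and 1429373_x_at, and -0.030 to 0.33 and -0.13 to 0.35 for Crtc3 1436379_at and 1451778_at. They were -0.056 to 0.037 and -0.16 to 0.035 for Myb 1421317_x_at and 1450194_a_at, -0.13 to 0.53 for Mybl2 1417656_at, and -0.41 to 0.10 for Cited2 1421267_a_at. A lone remaining sample was assumed to vary like the other genotype. With 2 samples per genotype, and Cited4 and other probe sets at background, small changes could not be resolved.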
